A study of Mus musculus with 6 samples.

Results

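The members described here are the mature microRNAs (miRNAs) of the miR-17-92 cluster and of its paralogs, the miR-106a-363 and miR-106b-25 clusters, as counted in a mouse liver small RNA library. They were chosen by name, as every mouse entry of miR-17, miR-18a, miR-19a, miR-19b, miR-20a, miR-92a, miR-106a, miR-18b, miR-20b, miR-363, miR-106b, miR-93 or miR-25, on either arm and from any gene copy, and this gave 28 distinct sequences of 1963 in the mouse list. They come from 15 hairpins, and 2 of the sequences, miR-19b-3p and miR-92a-3p, are encoded by both miR-17-92 and miR-106a-363.

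The study holds small RNA libraries of mouse liver after a vector with or without an element named after miR-122. The vector is an adeno-associated virus of serotype 9, AAV9, that carries Cre recombinase under the promoter of the cardiac troponin T gene Tnnt2, a promoter used for expression in heart muscle cells. The 3 Cre mice (replicates 10, 11 and 12) received AAV9-Tnnt2-Cre and the 3 Cre-miR122 mice (replicates 1, 2 and 4) received AAV9-Tnnt2-Cre-miR122, so all carry Cre. Strain, age, sex, any floxed allele and the time after injection were not stated in the labels. Only Cre-miR122 replicate 2 was analysed here, so each value below describes 1 library, without a control, and no group difference was tested. In bulk tissue, fewer cells of a type and less RNA per cell cannot be told apart.

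miR-17-92 is a polycistron: a single long transcript is cut into several hairpins, each of which yields a duplex of a 5p and a 3p arm. It is known as an oncogenic cluster whose host gene is activated by MYC and E2F factors. Its miRNAs lower mRNAs of growth and survival brakes such as Cdkn1a, a cell cycle inhibitor, and Bcl2l11, a cell death gene. miR-106b-25 lies within Mcm7, a subunit of the replicative DNA helicase, and is therefore transcribed with a proliferation gene, while miR-106a-363 is an X-linked copy that is low in most adult tissues. miRNAs find their targets mainly through the seed, bases 2 to 8, and the clusters mix a few seed families.

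The sequences below carry the results that follow, because the seed groups members from different clusters. They are written 5′ to 3′ with T for U, as in the deposited list, and the seed is in capitals. The first 6 share the miR-17 seed, the next 4 are the miR-18 and miR-19 families, then come 3 with the miR-25/92 seed, and miR-106b-3p has a seed of its own.
miR-17-5p: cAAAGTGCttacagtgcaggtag
miR-20a-5p: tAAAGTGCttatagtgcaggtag
miR-106a-5p: cAAAGTGCtaacagtgcaggtag
miR-20b-5p: cAAAGTGCtcatagtgcaggtag
miR-93-5p: cAAAGTGCtgttcgtgcaggtag
miR-106b-5p: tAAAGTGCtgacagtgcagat
miR-18a-5p: tAAGGTGCatctagtgcagatag
miR-18b-5p: tAAGGTGCatctagtgctgttag
miR-19a-3p: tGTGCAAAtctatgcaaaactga
miR-19b-3p: tGTGCAAAtccatgcaaaactga
miR-25-3p: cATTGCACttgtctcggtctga
miR-92a-3p: tATTGCACttgtcccggcctg
miR-363-3p: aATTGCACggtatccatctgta
miR-106b-3p: cCGCACTGtgggtacttgctgc

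Members of a family can differ at very few bases, with positions counted from 1 at the 5′ end of the first-named miRNA. miR-106a-5p differs from miR-17-5p by T10A alone, miR-19a-3p from miR-19b-3p by C11T alone, and miR-20a-5p from miR-17-5p by C1T and C12T. miR-18b-5p differs from miR-18a-5p by A18T and A20T. Over the 21 bases of miR-92a-3p, it differs from miR-25-3p by C1T, T14C and T18C.

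On GRCm38.p6, the assembly of mm10, the miR-17-92 hairpins Mir17, Mir18, Mir19a, Mir20a, Mir19b-1 and Mir92-1 span chr14:115043671-115044506 on the plus strand, in an exon of the noncoding host gene Mir17hg (ENSMUSG00000089726.2). The miR-106a-363 hairpins Mir106a, Mir18b, Mir20b, Mir19b-2, Mir92-2 and Mir363 span chrX:52741693-52742567 on the minus strand. There Mir106a overlaps exons of the noncoding gene Kis2 (ENSMUSG00000086173.7) by 5 bases, and the other hairpins lie in no other annotated gene. Mir106b, Mir93 and Mir25 span chr5:138165321-138165818 on the minus strand, inside Mcm7 (ENSMUSG00000029730.16). Mir106b is intronic in every annotated transcript. Mir93 and Mir25 are intronic except in a retained-intron transcript of Mcm7.

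The library held 6661069 reads on mouse entries. A count of 0 there allows a share of up to 4.5e-05%, taking 3 reads as the limit. Intervals in parentheses are exact Clopper-Pearson 95% intervals, or for ratios exact intervals given the sum of both counts. They treat each read as an independent count and cover no spread between mice or preparations. PCR copies were not marked, so the intervals can be too narrow even for counting error. Reads were not converted to numbers of molecules, so ratios between different miRNAs are ratios of reads. The 3 liver markers held 4.69% of mouse reads. These were 236027 reads of miR-122-5p, 72085 of miR-192-5p and 4017 of miR-194-5p, the last below miR-25-3p by mouse entries only. Since the vector element bears the name miR122 and the labels do not say whether it encodes miR-122 or holds its binding sites, the level of miR-122-5p is no independent check of the tissue. The 3 striated muscle markers, miR-1a-3p, miR-206-3p and miR-133a-3p, held 15.8% of mouse reads, with 980271, 68854 and 915 reads. The blood markers miR-486a-5p, miR-451a and miR-144-3p held 2549, 305 and 3 reads. The leukocyte markers miR-150-5p, miR-223-3p, miR-142a-5p and miR-142a-3p held 25 to 135 reads each. These are counts of mouse entries. With other listed forms of the same arms miR-122-5p had 685102 reads, miR-194-5p 18596 and miR-133a-3p 11609, while miR-25-3p had 6271. In the same count miR-451a had 2635, miR-142a-5p 369 and miR-142a-3p 146. So the order of some markers depends on the counting, and miR-194-5p then stood above miR-25-3p. The muscle markers together exceeded the liver markers in both counts, 1050040 against 312129 by mouse entries and 1165464 against 785976 with other listed forms. In the latter count miR-1a-3p had 1065891 reads and stayed above miR-122-5p. The part of muscle, blood and leukocyte cells in the members' reads was not tested.

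The clusters were a small component of this library. By mouse entries, most of their reads came from a single miRNA of the Mcm7 cluster. All 28 members together held 7436 reads, 0.112% of mouse reads (0.109 to 0.114). Of the 28, 18 (64.3%) had at least 1 read and 9 (32.1%) had at least 10, against 546 (27.8%) and 303 (15.4%) of all 1963 mouse sequences. miR-25-3p alone held 5299 reads, 71.3% of the members' total. By mouse entries alone it was the miRNA of rank 32 in the library, between miR-411-5p with 5504 reads and miR-300-3p with 4557. The next members were far lower, and 10 of the 28 sequences had no read.

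A mouse entry is not the whole arm. Reads that begin or end at a neighbouring base of the same hairpin were in part counted for entries of the same name from other species, here called end forms. The list held 59 such end forms of the members, 29 of them with reads. They carried 5097 reads, which is 40.7% (39.8 to 41.5) of the 12533 reads of members and end forms together. With end forms the members held 0.156% of mouse and end-form reads (0.153 to 0.159), and 19 of the 28 had a read. Several orders among the members depend on which count is used. Counts below are of mouse entries unless end forms are named.

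**Figure D1:**
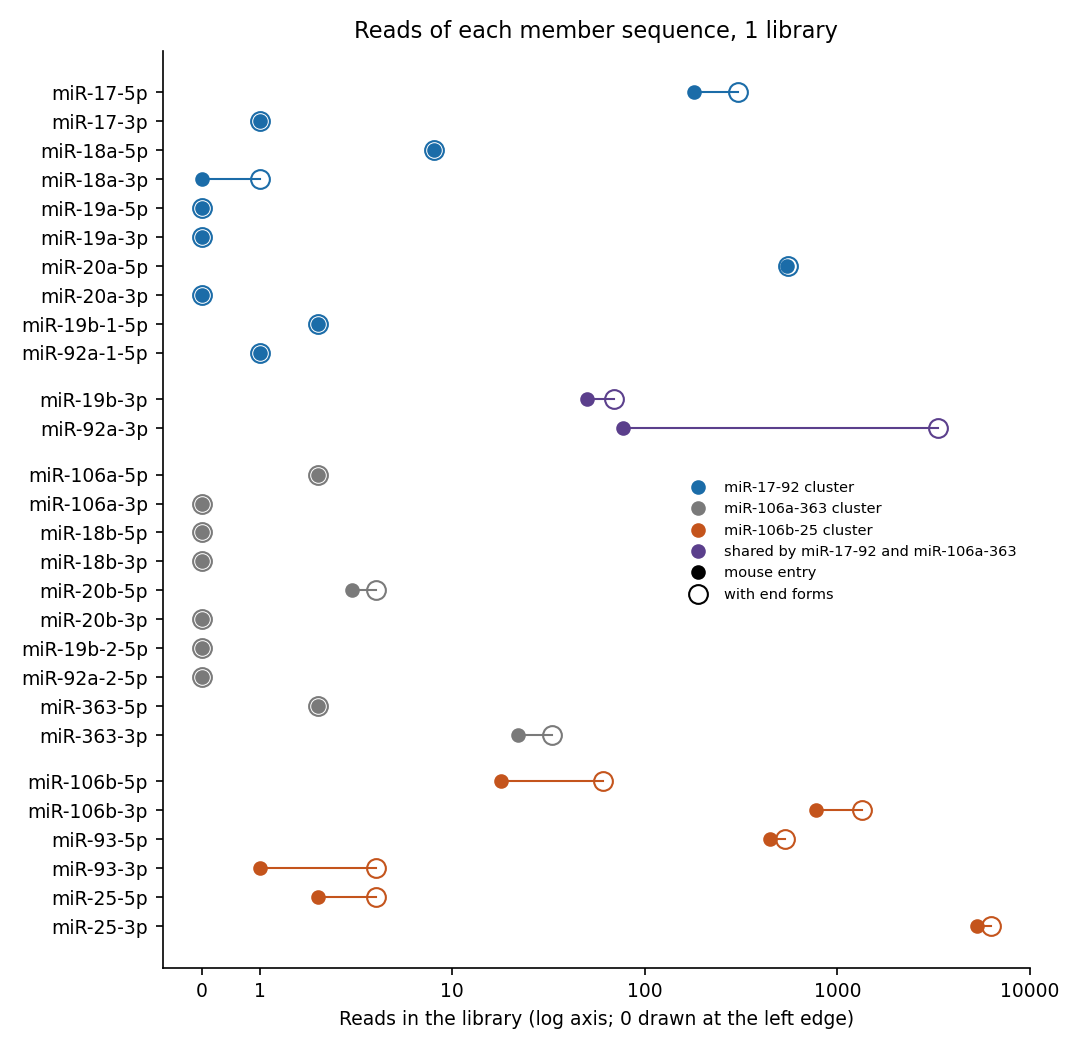
Reads of each of the 28 sequences in the 1 library on a log axis, by the mouse entry (filled) and with end forms (open), coloured by cluster. miR-25-3p lies farthest right at 5299 and 6271 reads, miR-92a-3p moves from 77 to 3335, and 9 members stay at 0 with both counts.

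In the miR-106b-25 cluster all 6 sequences had reads, 6539 in all. This was 87.9% (87.2 to 88.7) of the members' reads by mouse entries and 65.5% with end forms. miR-25-3p, which can lower the death gene Bcl2l11, made up 81.0% of the cluster. miR-106b-3p, the arm that is usually treated as the passenger, followed with 771 reads. miR-93-5p, a miR-17 family member, had 448. miR-106b-5p, its family partner in the cluster, had 18. The 3 hairpins lie within 498 bases, and reads of miR-25-3p outnumbered those of miR-93-5p 11.8 to 1 (10.7 to 13.1) and those of miR-106b-3p 6.87 to 1 (6.37 to 7.42). With end forms these ratios were 11.7 (10.7 to 12.8) and 4.68 (4.41 to 4.97), so the order of these 3 held.

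In the miR-17-92 cluster, 10 sequences are its own and 6 of them had reads, 741 in all or 9.97% of the members' reads (9.29 to 10.7). miR-20a-5p, a miR-17 family member, made up 74.0% of them with 548 reads. With end forms the cluster's own sequences held 874 reads, 6.97% of the members' reads, of which miR-20a-5p made up 63.7%. Adding the 3233 reads of the miR-92a-3p form that only its hairpin Mir92-1 holds, a setting chosen after seeing the data, brought the cluster to 4107 reads or 32.8%. miR-17-5p, the namesake, had 181 reads, and miR-18a-5p had 8. These 3 lie on the same primary transcript. miR-20a-5p had 3.03 reads per read of miR-17-5p (2.55 to 3.602) and 68.5 per read of miR-18a-5p (34.5 to 159). With end forms miR-17-5p rose to 304 reads and miR-20a-5p to 557, and their ratio was 1.83 (1.59 to 2.11).

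The miR-19 family, known for its part in the cluster's oncogenic activity, was low in this library. miR-19a-3p had 0 reads in its mouse entry and in each of 3 listed end forms. miR-19b-3p, which differs from it by a single base and is encoded by both miR-17-92 and miR-106a-363, had 50 reads and 69 with end forms. The arms opposite it, which do differ between its copies, had 2 reads for miR-19b-1-5p of miR-17-92 and 0 for miR-19b-2-5p of miR-106a-363. miR-20a-5p had 10.96 reads per read of miR-19b-3p (8.20 to 14.95), and 8.07 (6.28 to 10.5) with end forms.

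The X-linked cluster was almost unread. Of its 10 own sequences, 4 had reads, 29 in all, which is 0.390% of the members' reads (0.261 to 0.560). miR-363-3p, its last member and a miR-25/92 seed family member, accounted for 22 of them. With end forms the cluster held 41 reads, 33 of them of miR-363-3p and 4 of miR-20b-5p. miR-20b-5p had 3, miR-106a-5p had 2 and miR-363-5p had 2. miR-106a-3p, miR-18b-5p, miR-18b-3p, miR-20b-3p, miR-19b-2-5p and miR-92a-2-5p had 0 reads by their mouse entries, and 0 with end forms. miR-106a-5p, a single base from miR-17-5p, made up 1.09% (0.133 to 3.89) of the reads of both. miR-363-3p shares the seed of miR-25-3p but differs from it at 13 of 22 bases.

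Reads of the miR-106b-25 cluster outnumbered those of miR-17-92 8.82 to 1 (8.18 to 9.53), with the sequences shared with the X-linked cluster left out, and 9.40 to 1 (8.76 to 10.1) with end forms. This ratio rested on miR-25-3p and on how miR-92a-3p is counted. Without miR-25-3p it was 1.67 (1.53 to 1.84). With end forms and those forms of miR-92a-3p that only the miR-17-92 hairpin holds, the same setting, it was 2 (1.93 to 2.08). The order turned in a further setting chosen after seeing the data, with end forms, all shared reads given to miR-17-92 and no miR-25-3p, where the ratio was 0.454 (0.430 to 0.479). Reads of the X-linked cluster were 0.0391 per read of miR-17-92 (0.0260 to 0.0567). This was 0.211 (0.176 to 0.251) with the shared sequences given to the X-linked cluster, and 0.00998 (0.00715 to 0.0136) with end forms and the miR-92a-3p form that only Mir92-1 holds. The list has no entry for the corresponding form of Mir92-2, so the last setting could add such reads to miR-17-92 only.

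miR-92a-3p, the last miRNA of miR-17-92 and one known in endothelial cells, gave the largest gap between the mouse entry and its arm among the members. These are its 2 leading forms, with the seed in capitals, and they share every base except the added last T of the second.
miR-92a-3p mouse entry: tATTGCACttgtcccggcctg
miR-92a-3p longer form: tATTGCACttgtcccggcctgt
The 21-nt mouse entry held 77 reads and the 22-nt form, listed under other species, held 3233, 42.0 reads per read of the mouse entry (33.5 to 53.3). Of the 3335 reads of the arm, 2.31% (1.83 to 2.88) were the mouse entry. A read of the longer form contains the whole mouse entry, so these counts show that a read was not counted for every entry it contains. miR-92a-3p had the lowest mouse-entry part of any member with at least 10 reads, and it was the fifth lowest of the 95 mouse arms with at least 1000 reads, whose median was 69.3%.

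The longer form also bears on which gene copy it matches. After the shared 21 bases the hairpin Mir92-1 of miR-17-92 continues with T and Mir92-2 of the X-linked cluster continues with A. The 22-nt form therefore matches Mir92-1 exactly and Mir92-2 not. No entry of the list holds the 22-nt form of Mir92-2, so reads of that form are not seen, and a T added to a product of Mir92-2 after cutting would look like the Mir92-1 form. The opposite arms had 1 read for miR-92a-1-5p of Mir92-1 and 0 for miR-92a-2-5p of Mir92-2.

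Counting end forms changed the order of the members below miR-25-3p. By mouse entries miR-92a-3p stood behind miR-106b-3p, miR-20a-5p, miR-93-5p and miR-17-5p, at 0.141 reads per read of miR-20a-5p (0.109 to 0.179). With end forms it was second, with 5.99 reads per read of miR-20a-5p (5.47 to 6.56). miR-25-3p had 68.8 reads per read of miR-92a-3p by mouse entries (55.0 to 87.3) and 1.88 with end forms (1.80 to 1.96). By mouse entries miR-20a-5p exceeded miR-93-5p 1.22 to 1 (1.08 to 1.39), whereas with end forms their ratio was 1.04 and its interval (0.923 to 1.17) included 1.

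**Figure D2:**
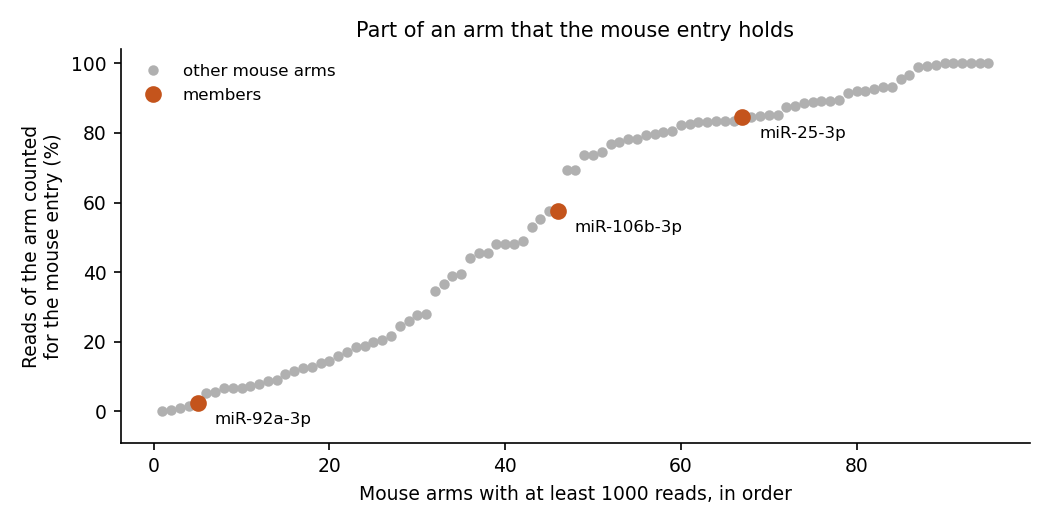
Percent of an arm's reads that were counted for its mouse entry, for the 95 mouse arms that reach 1000 reads when end forms are included, in ascending order. The 3 members among them are miR-92a-3p at 2.31%, miR-106b-3p at 57.6% and miR-25-3p at 84.5%.

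Grouped by seed, the members' reads lay mainly in the family of miR-25, miR-92a and miR-363. By mouse entries this family held 5398 reads, 72.6% of the members' total (71.6 to 73.6), and miR-25-3p made up 98.2% of it. With end forms it held 9639 reads, 76.9% (76.2 to 77.6), of which miR-25-3p made up 65.1% and miR-92a-3p 34.6%. So with end forms the family's share rose from 72.6% to 76.9%, while the part of miR-25-3p within it fell from 98.2% to 65.1%.

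The miR-17 seed family, the best known repressor of Cdkn1a among these miRNAs, held 1200 reads, 16.1% of the members' total (15.3 to 16.99). All 6 of its sequences had reads. miR-17-92 gave 729 of the 1200 (60.8%), the Mcm7 cluster 466 (38.8%) and the X-linked cluster 5 (0.417%). With end forms the family held 1463 reads and these parts were 58.9%, 40.7% and 0.410%. So within this family miR-17-92 led, while over all own sequences the Mcm7 cluster led.

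The miR-19 family held 50 reads, 0.672% of the members' total (0.499 to 0.886), and the miR-18 family 8 reads, 0.108% (0.0465 to 0.212). In both, 1 of 2 sequences had reads. The seed of miR-106b-3p, which no other member shares, held 771 reads or 10.4% (9.68 to 11.1), more than the miR-18 and miR-19 families together.

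**Figure D3:**
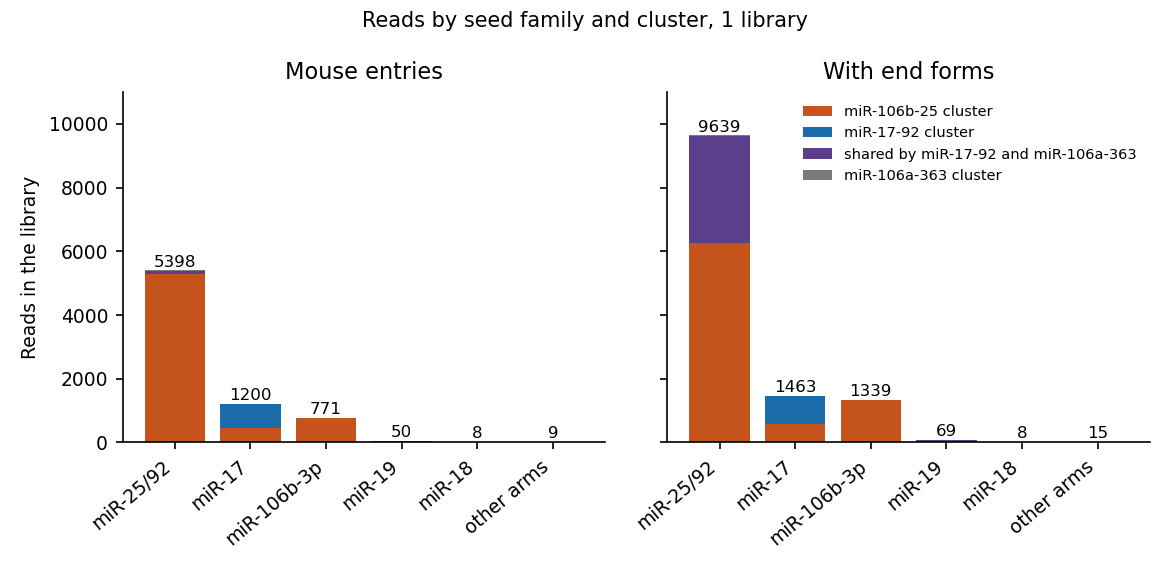
Reads in the 1 library by seed family, stacked by cluster, counted by mouse entries (left) and with end forms (right). The miR-25/92 column goes from 5398 to 9639 reads, mainly through miR-92a-3p, which is shared by miR-17-92 and miR-106a-363.

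Most hairpins gave reads from 1 arm almost exclusively. Mir17 gave 181 reads of its 5p and 1 of its 3p arm, and Mir93 gave 448 and 1. Mir20a gave 548 reads of its 5p and 0 of its 3p arm, at least 183 times as many when 3 reads are taken for the 0. Mir25 led with its 3p arm, with 5299 reads against 2. The 3p arm also led in the Mir19b copies with 50 reads against 2, in the Mir92 copies with 77 against 1 and in Mir363 with 22 against 2. With end forms the counts were 304 against 1 in Mir17, 535 against 4 in Mir93, 557 against 0 in Mir20a and 6271 against 4 in Mir25. Mir18 had 8 reads of its 5p and 0 of its 3p arm, 8 and 1 with end forms, while Mir19a and Mir18b had none. The leading arm of the hairpins named here with at least 10 reads was the 5p arm in the miR-17 family and the 3p arm in the miR-19 and miR-25/92 families.

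Mir106b went the other way from the rest of its seed family. Its 3p arm had 771 reads and its 5p arm, which carries the miR-17 seed, had 18, a ratio of 42.8 to 1 (26.9 to 72.7). End forms raised the 5p arm to 61 and the 3p arm to 1339, and the ratio was then 22.0 (16.98 to 28.9). Of the 6 hairpins whose 5p arm has the miR-17 seed, Mir106b was the one with more 3p reads. Over 154 mouse hairpins with both arms named and at least 100 reads, the 3p arm led in 65 (42.2%), so a leading 3p arm is common in this library.

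**Figure D4:**
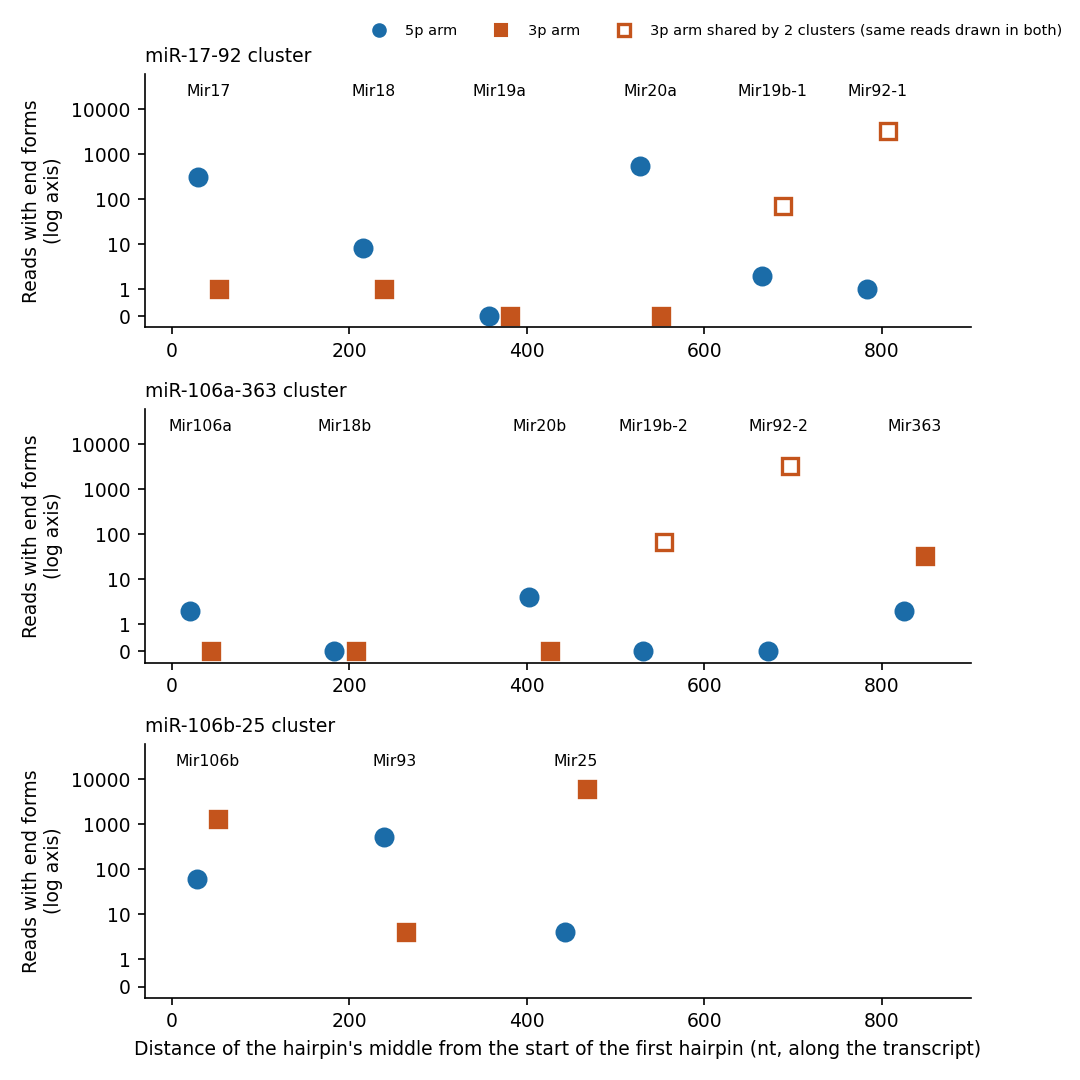
Reads with end forms of the 5p arm (circles) and the 3p arm (squares) of each hairpin on a log axis, placed by distance along the 3 clusters. Open squares mark miR-19b-3p and miR-92a-3p, whose mouse entries match both copies, and the same reads are drawn at both. Of the 3335 reads of miR-92a-3p, 3233 are of the form that matches Mir92-1 only. Mir106b has 61 reads of its 5p and 1339 of its 3p arm, while Mir17, Mir20a, Mir20b, Mir106a and Mir93, with the same 5p seed, have more 5p reads, only 4 in Mir20b and 2 in Mir106a.

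The remaining 14 arms, outside these families, held 9 reads in all and at most 2 each. They are miR-17-3p, miR-18a-3p, miR-20a-3p, miR-106a-3p, miR-18b-3p, miR-20b-3p, miR-93-3p, miR-19a-5p, miR-19b-1-5p, miR-19b-2-5p, miR-92a-1-5p, miR-92a-2-5p, miR-363-5p and miR-25-5p. Of them 6 had a read. With end forms they held 15 reads, and the highest, miR-93-3p and miR-25-5p, had 4 each. Differences among them were not detectable at this depth.

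The 3′ ends differed from member to member. For miR-20a-5p 98.4% (97.0 to 99.3) of the arm's reads were the mouse entry. For miR-25-3p this was 84.5% (83.6 to 85.4), and 945 further reads ended 1 base earlier. miR-106b-3p ended early more often, with 57.6% (54.9 to 60.2) in the mouse entry and 42.4% of reads ending before it. miR-17-5p spread both ways, with 20.7% of reads ending after the mouse entry and 19.7% before it. miR-106b-5p resembled miR-92a-3p in that more reads lay 1 base beyond the mouse entry, 43 against 18. These values depend on which ends the list records, from 1 end form for miR-106b-5p to 5 for miR-19b-3p.

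**Figure D5:**
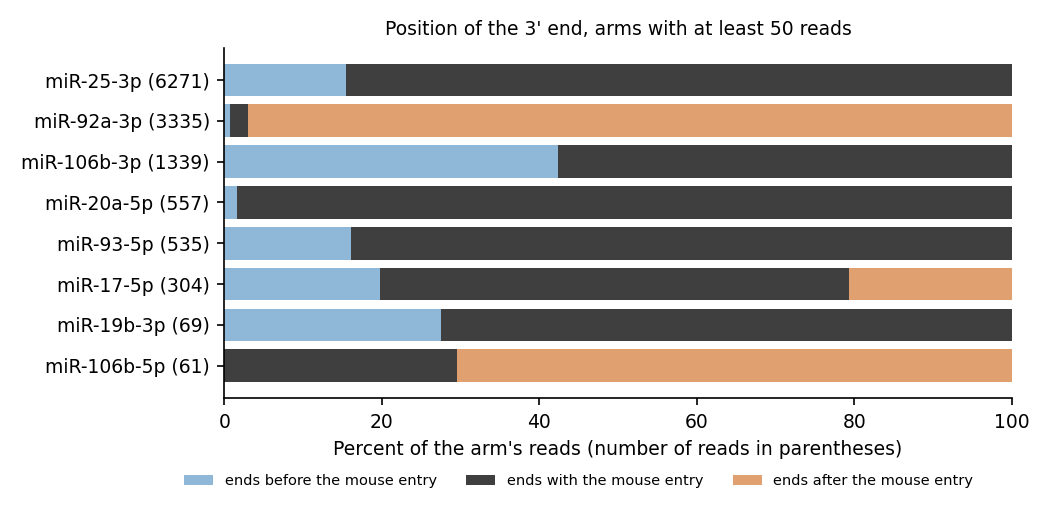
Percent of each arm's reads that end before, with or after the 3′ end of the mouse entry, for the 8 arms that reach 50 reads when end forms are included. miR-92a-3p (96.9%) and miR-106b-5p (70.5%) have most of their reads after that end, and miR-106b-3p has 42.4% before it.

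Reads that begin at another base have another seed, and few were counted among the members. Such a read is counted only where the list records that start, so a low share can reflect starts that are not listed. Reads with a listed shifted start numbered 55, or 0.439% of the reads with end forms. Of these, 48 belonged to miR-106b-3p, 3.58% of that arm. The main form and the 2 shifted forms of this arm are shown with the seed of each in capitals, because the shift changes the seed.
miR-106b-3p mouse entry: cCGCACTGtgggtacttgctgc
miR-106b-3p, 2 bases earlier: tACCGCACtgtgggtacttgct
miR-106b-3p, 1 base earlier: aCCGCACTgtgggtacttgctg
They held 771, 42 and 6 reads. In miR-25-3p the shifted form, 1 base later, had 6 of 6271 reads, 0.0957%. miR-106b-3p ranked 19 of 95 mouse arms with at least 1000 reads by the share of listed shifted starts. The median arm had 0%, and arms without a listed shifted start can only have 0%. Regrouping all end forms by their own seed moved 6 reads out of the miR-25/92 family, 1 out of the miR-17 family and 48 out of the seed of miR-106b-3p.

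Seed relatives outside the 3 clusters added little. Of 4 other mouse sequences with the seed of a leading arm, miR-32-5p had 45 reads, or 112 with other listed forms, miR-92b-3p had 2, or 6, and miR-367-3p and miR-6383 had 0. The miR-25/92 seed in this library was thus read almost wholly from miR-25-3p and miR-92a-3p. A further list, the miR-302 and miR-290 clusters of embryonic stem cells, has seeds close to that of miR-17. It held 5 reads over 11 sequences, 4 of which had a read, and the highest was miR-302b-3p with 2.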

How the data were processed

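The authors deposited raw counts, as whole numbers, of reads per entry of a multi-species mature miRNA list for 1 cleaned library, per the file headers. By its column name the library is Cre-miR122 replicate 2. The labels' protocols describe ligation of adapters at both ends, PCR and size selection, and name no molecular identifiers. The genome build mm10 is named by the submitters' processing notes, while for the counting program and list release the sources used here give no name. Identical sequences had equal counts (0 exceptions), and each distinct sequence was used once. With 1 library no test across groups could be run, and 5 labelled libraries were not analysed here.

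End forms are same-named entries of other species that match a member hairpin exactly and share at least 15 bases with the mouse sequence. Hairpins came from GENCODE release M21 and were identical to the 15 RefSeq (GRCm38.p6) hairpins, and 26 of the 28 members are in the RefSeq mature list. Sequences were copied from the deposited table. Shares of end forms use 8032208 reads, the sum over all mouse sequences and their end forms. Under another counting rule that gives each read to a single entry, an entry could also hold reads with unrecorded ends. The members and lists were chosen with earlier results of these data known. All members are named, with seed relatives, a fixed list of embryonic relatives, tissue markers and the neighbours in rank of the highest member. Intervals and end-form assignment were run on simulated data without PCR copies or sequencing errors, with end forms cut from the same hairpins. This checked the calculations only, not how well they hold for real reads. Exact intervals came from SciPy 1.17.1 with NumPy 2.4.6, tables from pandas 2.3.3 under Python 3.11.15, and plots from matplotlib 3.10.9.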

Additional observations from a re-analysis of the deposited data

Results flagged for a closer look

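Reads outside the mouse entries of the members lay above the limit of 3 reads that a count of 0 allows. End forms of the members in entries of other species held 5097 reads, of which 3233 were the longer form of miR-92a-3p. A further 16 reads were counted for 4 entries named miR-92a that match no mouse hairpin. The highest of them, with 10 reads, follows the hairpin Mir92-1 for 22 of its 23 bases. The others held 3, 2 and 1 reads, and the entries with 3 and 2 differ from a form of miR-92a-3p by G21A and T10C. Their source was not tested.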

How the results depend on the processing

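The 0.112% share of the members was 0.0911% of the reads of all species' entries, 0.156% with same-named end forms, 0.156% with end forms of any name, which added 1 read, and 0.265% without miR-148a-3p in the total. At least 10 reads were held by 9 members, against 18 with at least 1. The ratio of the miR-106b-25 to the miR-17-92 cluster, 8.82, was 7.53 with shared sequences given to miR-17-92 and 1.67 without miR-25-3p. With end forms it was 2 with the forms only Mir92-1 holds, and 1.92 with all shared reads, given to miR-17-92. In the latter setting without miR-25-3p it turned to 0.454. These last 3 settings were added after seeing the data. The ratio of the X-linked cluster to miR-17-92, 0.0391, was 0.211 with shared sequences given to the X-linked cluster. It was 0.00998 with end forms and those only Mir92-1 holds, also added later. This setting could add the longer miR-92a-3p form to miR-17-92 only, as the list has no such entry for Mir92-2. With end forms the miR-25/92 family held 76.91% of member reads, or 76.86% by each form's own seed, and the miR-17 family 11.67% either way. Without miR-25-3p, which lowers the total, the miR-25/92, miR-17, miR-19, miR-18 and miR-106b-3p seeds held 4.63%, 56.2%, 2.34%, 0.374% and 36.1%. No arm order turned in the 8 hairpin comparisons with at least 10 reads. Depth limits the 19 members under 10 reads. No paired analysis was possible because only 1 library, of 1 group, was at hand.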
